A study of Mus musculus with 17 samples.

Results

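The genes described here are 10 that are known to be induced by low oxygen or that carry out glycolysis: Hif1a, Vegfa, Slc2a1, Hk2, Ldha, Pgk1, Adm, Bnip3, Eno1 and Aldoa. They were followed in mouse brain to ask whether a transcript response to hypoxia was still present 6 h into reperfusion. Members were the probe sets whose gene symbol in the platform annotation was 1 of these 10. That matching used no measured value, but the 10 genes were chosen with earlier results of these data known. Of the 10 genes, 9 had a probe set. They had 12 probe sets of the 12488 on the array, and Eno1 matched none.

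RNA came from brain tissue supplied by the middle cerebral artery, and each of 17 oligonucleotide arrays gave 1 intensity per probe set. The groups were 5 single brains with ischemia followed by intravenous AEOL 10150 (single treated brains), 3 pools of 6 brains with the same ischemia and drug (treated ischemic pools), 3 pools with ischemia and no drug in their titles (ischemic pools), 3 pools given AEOL 10150 without ischemia (drug control pools), and 3 pools given saline without ischemia (control pools). Ischemia lasted 1 h and was followed by 6 h of reperfusion. Tissue of both non-ischemic groups was taken 6 h after the injection. AEOL 10150 is a catalytic antioxidant, a small molecule that breaks down reactive oxygen species. The labels used here give no strain, age, sex or dose, and do not say whether ischemic mice without the drug were given saline. They call the pools replicates and do not say that the pools hold separate animals, so p-values concern the spread between pools. In 2 pools title and description differed: the description of treated ischemic pool 1 names no drug, and that of drug control pool 1 names saline. Groups were taken from the titles.

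Cells that lack oxygen stabilise the transcription factor subunit HIF-1alpha, the product of Hif1a, which is otherwise hydroxylated and degraded. With its partner ARNT it binds short DNA elements with the core ACGTG or GCGTG and raises the transcription of genes for glucose uptake, glycolysis, vessel growth and mitochondrial removal. In a brain artery occlusion this program is known from the tissue around the infarct, where cells survive on little oxygen. The control of HIF-1alpha lies mainly in the stability of the protein, so the Hif1a transcript itself is an indirect readout.

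The core elements were searched, as background to the grouping of these genes, in the 250 bases upstream of each RefSeq transcription start (build GRCm38.p6). Both strands were searched for ACGTG and GCGTG, so that CACGTG, which reads as ACGTG on both strands, counted as 2 matches. A match was present in 14 of 16 promoters of the 10 genes and in at least 1 promoter of each of the 10 genes. Over all 32851 promoters, 38.6% held a match, and 16.6% held ACGTG, which 9 of the 16 member promoters held. Of all 27025 genes searched, 41.5% had a match in at least 1 promoter. Of the 5828 genes tested on the array that had a promoter, 3480 had a match. The windows below show the matches nearest to the start of 6 members, 5′ to 3′ on the gene's strand, with matches in capitals. They are shown as examples of the element, which not every promoter of these genes held.

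Ldha (chr7:46845736-46845794, + strand): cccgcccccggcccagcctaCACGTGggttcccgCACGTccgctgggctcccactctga
Pgk1 (chrX:106186930-106186993, + strand): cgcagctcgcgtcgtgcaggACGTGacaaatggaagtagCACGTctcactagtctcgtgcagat
Slc2a1 (chr4:119108689-119108733, + strand): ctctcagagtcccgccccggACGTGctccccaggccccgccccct
Hif1a (chr12:73907777-73907821, + strand): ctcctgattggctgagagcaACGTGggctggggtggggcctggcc
Bnip3 (chr7:138909581-138909643, - strand): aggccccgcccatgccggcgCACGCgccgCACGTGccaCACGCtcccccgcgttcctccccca
Adm (chr7:110627583-110627627, + strand): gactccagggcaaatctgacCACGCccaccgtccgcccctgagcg

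In these windows Ldha and Bnip3 each held CACGTG together with further matches, Pgk1 held ACGTG once on each strand, and Adm held only the GCGTG form. The Bnip3 window is the match cluster farther from its start, shown because it holds CACGTG. Of the 2 Vegfa starts in RefSeq, the upstream one, at the outer end of the gene, had no match in its window. The downstream one had 2 matches, and its window lies inside the gene. Vegfa is counted among the genes with a match through that internal window only. A match is a description of the letters, not a bound site or a cause of any value. Over genes tested on the array, ischemic minus non-ischemic pools had a median of -0.0055 on the log2 scale in the 3480 genes with a match and 0.022 in the 2348 without.

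All values are log2 intensities after each array had been scaled to 1 trimmed mean. Intensities below 109.5, the 25th percentile of the pooled arrays, were set to that floor, which is 6.77 on the log2 scale. Before scaling, 10 arrays shared a common level, and the 5 single brains and treated ischemic pools 2 and 3 did not. Neuron markers checked the tissue: 6 of 8 listed were on the array and all 6 were above the floor on every array. Of the 12 member probe sets, 10 were above the floor on at least 3 pooled arrays and were tested, among 10259 probe sets in all. Both Hk2 probe sets failed this filter. Hk2 encodes hexokinase 2, an enzyme that traps glucose in the cell. Its probe set 94375_at was at the floor on all 17 arrays. The other, 161313_at, was above the floor only on single brain 12 (6.95), ischemic pool 3 (7.19) and control pool 3 (6.94). No level or change of Hk2 can be read at this sensitivity.

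In the ischemic pools stress genes rose, and the hypoxia and glycolysis genes were not among the genes that passed the test. In bulk tissue, fewer cells of a type and less RNA per cell cannot be told apart. In the 6 pools with ischemia against the 6 without, 46 of 10259 probe sets (0.448%) passed a limma adjusted p of 0.05, and 0 of the 10 member probe sets did. Members with an unadjusted p under 0.05 in limma also numbered 0. For 0 of the 10 the ischemic pools were all above or all below the 6 others, an arrangement that 0.829% (above) and 0.283% (below) of all tested probe sets had. The stress genes Hspa1b and Hspa1a, which encode inducible heat shock proteins, rose by 4.59 (SE 0.36) and 4.21 (SE 0.30) on the log2 scale. Atf3 and Fos, stress-induced and activity-induced transcription factors, both rose by 3.16, and Gadd45b, a growth arrest gene, rose by 2.87 and 3.49 on its probe sets. These 5 genes were picked with their response in these data known and serve only as a scale. The log2 differences of the members ran from -0.13 for Slc2a1 to 0.73 for Vegfa. Their median was 0.11, or 0.033 to 0.16 with 1 pool left out, and 7 of 10 were above 0, against a median of 0.014 over all tested probe sets, of which 52.5% were above 0. The lowest of these, 0.033, was without ischemic pool 1.

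**Figure D1:**
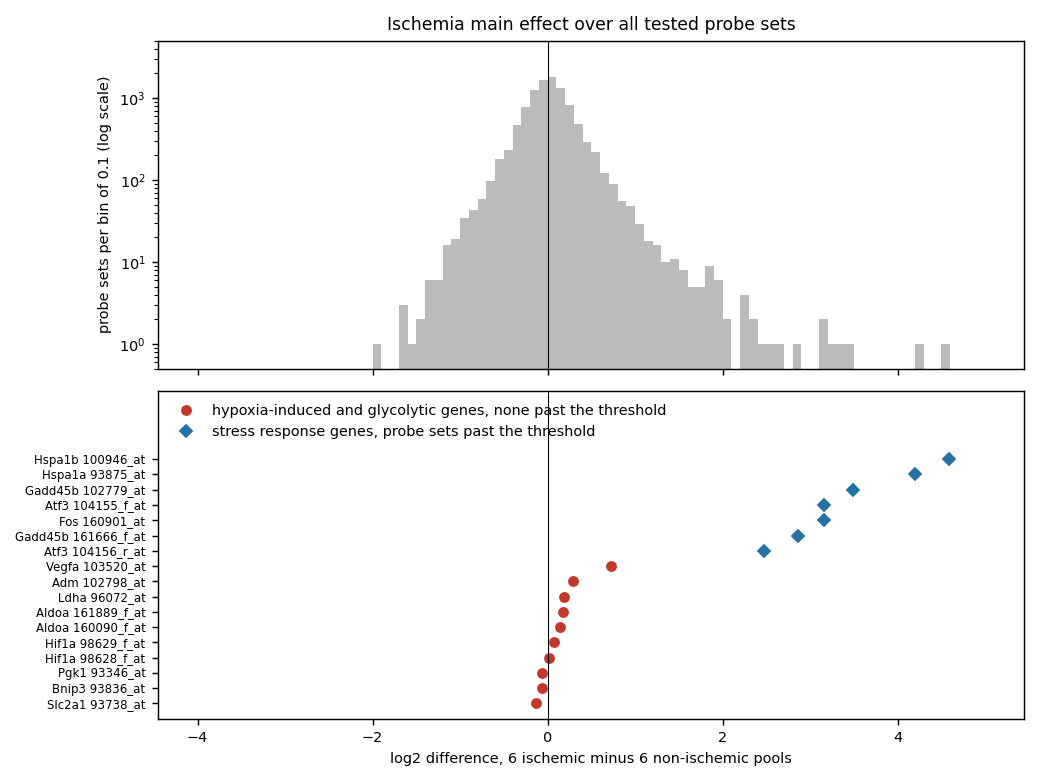
Log2 difference of the 6 ischemic minus the 6 non-ischemic pools. Upper panel: number of probe sets per bin over all 10259 tested (log axis). Lower panel: 1 row per probe set, with hypoxia-induced and glycolytic genes as circles and stress response genes as diamonds. The circles lie between -0.13 and 0.73, and the diamonds lie above 2. The highest circle, Vegfa, is above 97.0% of the tested probe sets.

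The tested glycolytic enzymes Aldoa, Ldha and Pgk1 were far above the floor on every array. They had the narrowest intervals of the tested members for ischemic against non-ischemic pools. Aldoa encodes the aldolase that splits fructose bisphosphate, and probe set 160090_f_at measured it at 16.08, 16.17, 16.18, 16.13 and 16.11 in the single treated brains. The same probe set gave 15.98, 15.81 and 16.00 in treated ischemic pools, 16.07, 15.79 and 15.86 in ischemic pools, 15.99, 15.88 and 15.66 in drug control pools, and 15.78, 15.72 and 15.60 in control pools. All 3 ischemic pools were above all 3 control pools, while treated ischemic and drug control pools overlapped.

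The second Aldoa probe set, 161889_f_at, gave the same order between the pools without the drug. It had 14.57, 14.25 and 14.28 in ischemic pools, against 14.08, 13.87 and 14.07 in control pools. It did not show the height of the single treated brains, which had 14.34, 14.30, 14.05, 14.29 and 14.23, within the range of the drug control pools (14.33, 14.62 and 14.00). The suffix _f_at marks, in the naming of this array maker, probes that may match several members of a sequence family, so signal from relatives of Aldoa and of Hif1a cannot be told apart from their own.

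In ischemic against control pools the Aldoa log2 differences were 0.21 (SE 0.17, 95% confidence interval -0.17 to 0.58) and 0.36 (SE 0.20, interval -0.086 to 0.80). Both had a limma adjusted p of 1. In that comparison 4.07% of all tested probe sets had ischemic pools entirely above control pools, and 2 of 10 member probe sets did, both of 1 gene. The comparison called 22 probe sets (0.214%) in limma, and 0 members.

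Ldha encodes the lactate dehydrogenase subunit that favours the formation of lactate from pyruvate. Its probe set 96072_at read 14.88, 14.65, 15.06, 14.72 and 14.73 in the single treated brains. It read 14.89, 14.88 and 14.88 in treated ischemic pools, against 14.54, 14.63 and 14.46 in drug control pools. Both groups with ischemia and the drug were thus above the drug control pools on every array.

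Without the drug the Ldha values overlapped, with 14.70, 14.60 and 14.65 in ischemic pools, against 14.71, 14.74 and 14.41 in control pools. Treated ischemic minus drug control pools gave 0.34 (SE 0.16, interval -0.0095 to 0.69, limma adjusted p = 1). Ischemic minus control pools gave 0.031 (SE 0.16, interval -0.32 to 0.38). The difference between these responses was 0.31 (SE 0.22, interval -0.19 to 0.81, limma adjusted p = 1.00), so the test did not separate them. Treated ischemic pools were also all above ischemic pools for Ldha, a separation seen in 1.72% of all probe sets, with a difference of 0.23 (SE 0.16, limma adjusted p = 1).

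Pgk1, which encodes the kinase of the first ATP-forming step of glycolysis, ran from 14.49 to 14.61 in the single treated brains, with a median of 14.58. Its pools overlapped in every comparison, with 14.25, 14.67 and 14.52 in treated ischemic, 14.44, 14.56 and 14.25 in ischemic, 14.62, 14.54 and 14.32 in drug control, and 14.54, 14.70 and 14.32 in control pools. The difference between ischemic and non-ischemic pools was -0.061 (SE 0.13). Expressed as a fold, its interval ran from 0.779 to 1.18, so a rise of Pgk1 beyond that upper bound lay outside the interval. The upper bounds for the other enzymes were 1.35-fold for Ldha and 1.33-fold and 1.40-fold for the Aldoa probe sets.

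Slc2a1 encodes GLUT1, the glucose carrier of the blood-brain barrier and of astrocytes. Probe set 93738_at gave 12.42, 12.28, 12.25, 12.33 and 12.01 in the single treated brains. Among pools it gave 12.09, 10.95 and 12.08 in treated ischemic, 12.16, 10.97 and 11.70 in ischemic, 12.24, 11.35 and 11.53 in drug control, and 12.48, 11.68 and 11.47 in control pools. The spread within each pooled group was larger than any difference between pooled groups. Ischemic and non-ischemic pools differed by -0.13 (SE 0.31, interval -0.81 to 0.55), which spans folds of 0.569 to 1.46.

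Hif1a, measured by 2 probe sets, was far above the floor on all arrays, and its groups overlapped. On 98628_f_at, treated ischemic pools had 13.70, 12.87 and 13.37, ischemic pools 13.82, 13.24 and 13.15, drug control pools 13.57, 13.37 and 13.31, and control pools 13.67, 13.01 and 13.11. The single treated brains lay between 13.23 and 13.53, with a median of 13.43, inside the range of the pools. The difference of ischemic minus non-ischemic pools was 0.019 (SE 0.20) on this probe set and 0.069 (SE 0.18) on 98629_f_at, with fold intervals of 0.747 to 1.37 and 0.796 to 1.38.

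Bnip3 encodes a mitochondrial outer membrane protein that promotes the removal of mitochondria and can promote cell death. Its probe set 93836_at gave 12.12, 11.49 and 11.71 in treated ischemic pools, 12.11, 11.45 and 11.89 in ischemic pools, 12.08, 11.98 and 11.91 in drug control pools, and 12.06, 11.38 and 11.75 in control pools. The pooled groups overlapped in every pair. The difference of ischemic minus non-ischemic pools was -0.065 (SE 0.18, fold interval 0.727 to 1.26).

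Vegfa and Adm encode secreted proteins that act on vessels, the growth factor VEGF-A and the vasodilator peptide adrenomedullin. They had the widest intervals of the tested members. Vegfa (103520_at) gave 10.03, 9.18 and 10.01 in treated ischemic pools, 9.30, 9.0 and 10.75 in ischemic pools, 9.22, 7.01 and 9.65 in drug control pools, and 9.53, 8.77 and 9.71 in control pools. Ischemic pool 3 was the highest pool and drug control pool 2 the lowest.

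The Vegfa difference between ischemic and non-ischemic pools was 0.73 (SE 0.48, interval -0.34 to 1.80, limma adjusted p = 1.00), higher than that of 97.0% of all tested probe sets. Without drug control pool 2 it was 0.33. Treated ischemic minus drug control pools gave 1.11 (SE 0.68), and 0.30 without that pool. Ischemic minus control pools gave 0.35 (SE 0.68, interval -1.16 to 1.86), so the arrays allow folds of up to 3.62 there and do not detect one. Without ischemic pool 3 that value was -0.19, and without ischemic pool 2 it was 0.69.

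Adm (102798_at) gave 8.42, 8.32 and 8.76 in treated ischemic pools, 8.49, 7.66 and 6.97 in ischemic pools, 8.29, 7.19 and 7.95 in drug control pools, and 8.38, 8.32 and the floor in control pools. Treated ischemic pools were all above drug control pools, by 0.69 (SE 0.50, limma adjusted p = 1). Without drug control pool 2 that difference was 0.38. Adm and Ldha were the 2 member probe sets of 10 with this separation, which 3.75% of all tested probe sets showed.

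For Adm, treated ischemic minus ischemic pools gave 0.79 (SE 0.50, interval -0.32 to 1.90), with ischemic pool 1 above 2 of the treated ischemic pools, and 0.42 without ischemic pool 3. Ischemic minus control pools gave -0.12 (SE 0.50). That sign rested on single pools: the value was 0.25 without ischemic pool 3, -0.64 without control pool 3, and 0.41 with a floor at the 20th percentile. The limma comparison of treated ischemic with drug control pools called 9 probe sets (0.0877%), that of treated ischemic with ischemic pools 1 (0.00975%), and that of drug control with control pools 1 (0.00975%). Of the members, 0 passed in each of these, and 0 had an unadjusted p under 0.05. The difference of the ischemia responses with and without the drug called 0 of 10259 probe sets (0%), with 213 at an unadjusted p under 0.05, none of them a member.

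**Figure D2:**
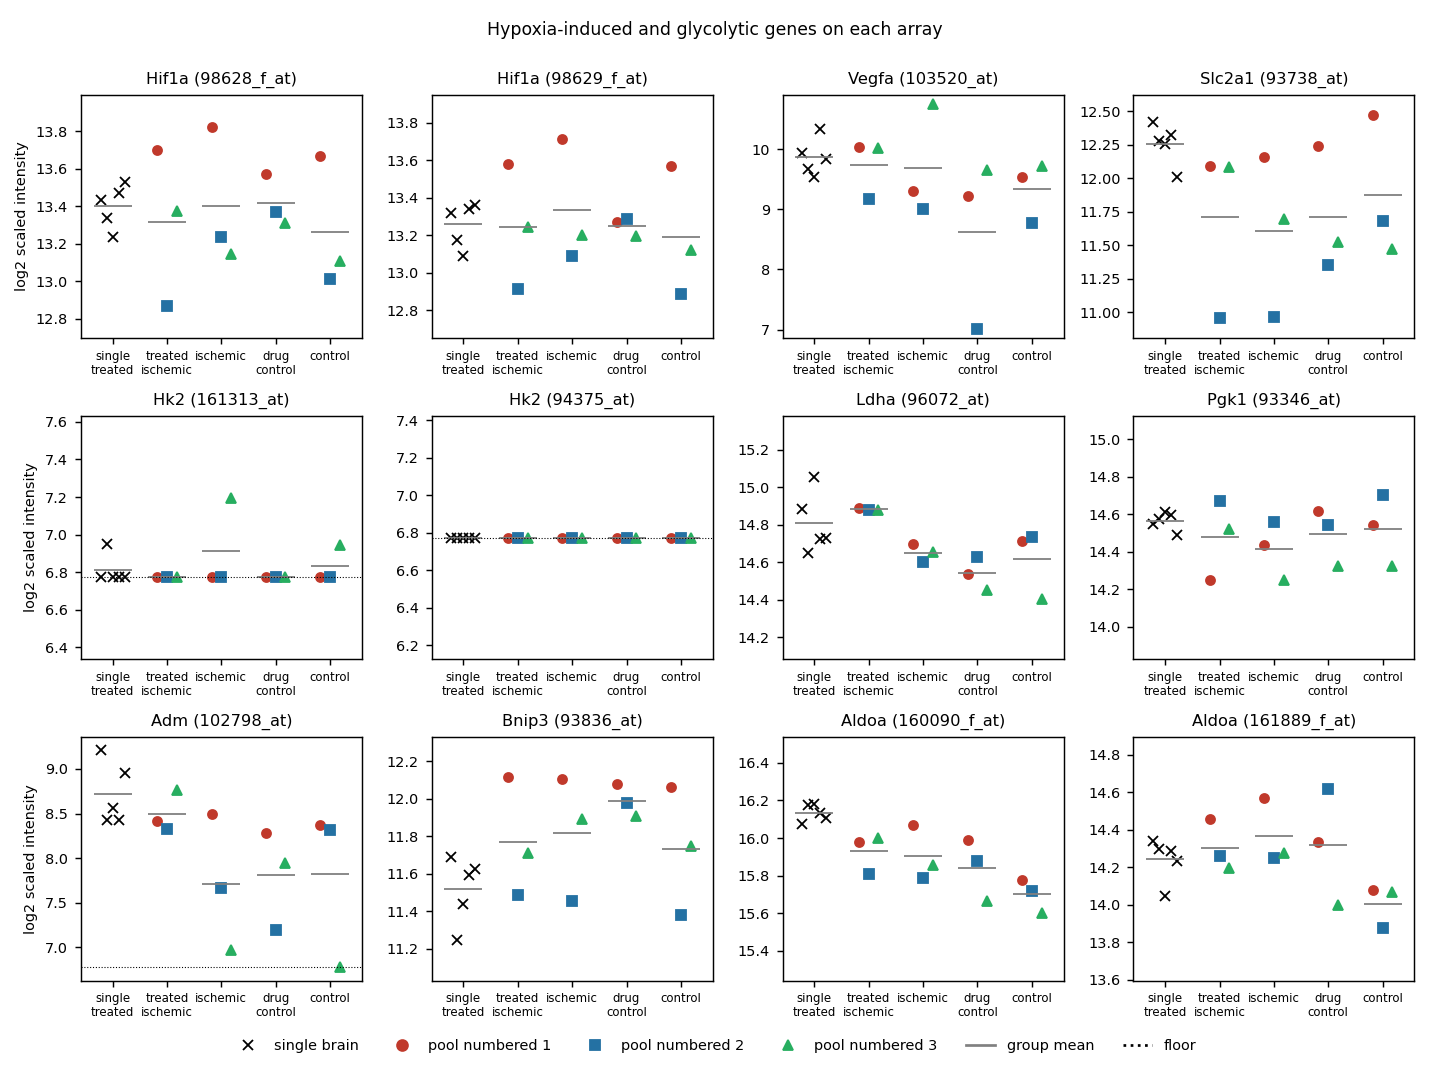
Log2 intensity of each of the 12 member probe sets on all 17 arrays, by group. Crosses are single brains, coloured symbols are pools by their replicate number, grey bars are group means, and the dotted line is the floor at 6.77. Pools numbered 1 (circles) stand highest for Slc2a1, Bnip3 and Hif1a 98628_f_at in all 4 pooled groups, and both Hk2 panels lie at or near the floor.

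The replicate number printed on the pools accounted for more of the spread of these genes than the experimental group did. Of the sum of squares over the 12 pools, replicate number held a median of 52.9% and group 20% over the 10 member probe sets, against 31.6% and 18.8% over all tested probe sets. The share by replicate number was 75.7% and 70.3% for the Hif1a probe sets, 75% for Slc2a1, 67.6% for Bnip3, 54.3% for Vegfa and 51.5% for Pgk1. Group held more than replicate number for 3 of the 10 probe sets. They were Ldha, with 69.0% by group and 11.7% by replicate number, and Aldoa 161889_f_at (43.0% and 18.2%) and 160090_f_at (41.4% and 31.2%). Adm was near even, with 25.2% by group and 26.6% by replicate number.

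For Slc2a1, Bnip3 and Hif1a 98628_f_at, the 4 pools numbered 1 were above all 8 others, an arrangement found in 1.42% of all tested probe sets. For Vegfa the 4 pools numbered 2 were below all others, as in 4.83% of probe sets. These arrangements were looked for after the values had been seen and have no test. The labels do not say what a replicate number marks, and for treated ischemic pool 2 title and description give different numbers. The actin control probes give a 3′ to 5′ ratio that increases as RNA degrades, and it was 1.65 to 1.97 in pools numbered 1, 1.29 to 2.14 in pools numbered 2 and 1.15 to 1.34 in pools numbered 3. The same ratio of the Gapdh control probes ordered the pools differently, at 0.903 to 1.06, 1.16 to 1.55 and 1.04 to 1.19 in pools numbered 1, 2 and 3. The part of RNA quality in these values was not tested.

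**Figure D3:**
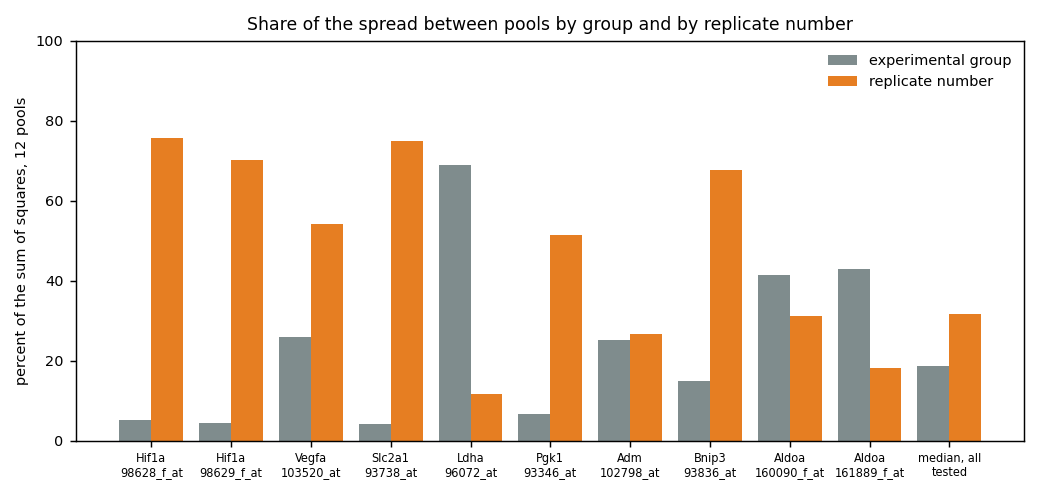
Percent of the sum of squares over the 12 pools that lay between the 4 experimental groups (grey) and between the 3 replicate numbers (orange), for each tested member probe set and as the median of all tested probe sets. Replicate number held 75.7% for Hif1a 98628_f_at and 75% for Slc2a1, and group held 69.0% for Ldha.

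Same-numbered control, drug control and ischemic pools deviated from their group means together. Unless a replicate block is named, standard errors and intervals come from fits without replicate number and include that spread. With replicate number as a block in the fit, the standard error of the Vegfa difference between ischemic and non-ischemic pools fell to 0.287 and its unadjusted limma p was 0.034. Its limma adjusted p was 0.533, and the block added no member to those past the threshold.

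The comparisons of single treated brains with pools called more probe sets than those between pools, and 0 members. Against the drug control pools, 328 of 10227 probe sets (3.21%) passed in limma and 0 of 10 members did. Against the ischemic pools 140 (1.37%) passed, again with 0 members. Unadjusted p-values under 0.05 were found for 3 members, Adm, Bnip3 and Aldoa 160090_f_at, in the first comparison, where 2415 of all probe sets had one. They were found for 2 members, Slc2a1 and Adm, in the second, with 2128 over all. The members' median log2 difference was 0.17 against drug control pools and 0.15 against ischemic pools, beside -0.055 and -0.053 over all tested probe sets. Without drug control pool 3 the first was 0.093, and without ischemic pool 2 the second was 0.025. With arrays scaled to a common median, the members' medians were 0.37 and 0.36, and those of all probe sets turned positive, at 0.13 and 0.14.

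Adm was at 9.21, 8.42, 8.56, 8.42 and 8.96 in the single treated brains, above all 3 drug control pools and above 2 of 3 ischemic pools. The log2 difference was 0.91 (SE 0.36, interval 0.11 to 1.71, limma adjusted p = 0.166) against drug control pools and 1.01 (SE 0.36, interval 0.21 to 1.81, limma adjusted p = 0.160) against ischemic pools. They were 0.60 without drug control pool 2 and 0.64 without ischemic pool 3. Vegfa was at 9.94, 9.66, 9.54, 10.33 and 9.84 in the single treated brains. The Vegfa log2 difference was 1.23 against drug control pools (SE 0.58, limma adjusted p = 0.226), which became 0.42 without drug control pool 2, and 0.18 against ischemic pools (SE 0.58), which became -0.17 without ischemic pool 2.

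Slc2a1 averaged 12.26 ± 0.15 in the single treated brains (SD, n = 5) and 11.61 ± 0.60 in ischemic pools (SD, n = 3), a log2 difference of 0.65 (SE 0.28, limma adjusted p = 0.219). It was 0.33 without ischemic pool 2. Against the drug control pools, at 11.71 ± 0.47 (SD, n = 3), the difference was 0.55 (SE 0.28, limma adjusted p = 0.256). The single brains overlapped the highest pool of both groups, which in each was the pool numbered 1.

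Bnip3 was at 11.69, 11.24, 11.44, 11.59 and 11.63 in the single treated brains, below all 3 drug control pools, a log2 difference of -0.47 (SE 0.17, interval -0.86 to -0.087, limma adjusted p = 0.142). That separation downward held for 11.7% of all probe sets. The sign was not kept with the deposited scale as a block over all 17 arrays, where Bnip3 differed by 0.046 (SE 0.36) from the drug control pools and by 0.22 (SE 0.36) from the ischemic pools. Upward separation from the drug control pools held for 8.62% of probe sets and for 3 of 10 members, namely Adm, Ldha and Aldoa 160090_f_at. Against the ischemic pools the single brains were separated upward for Aldoa 160090_f_at alone among the 10 members (6.97% of all probe sets), by 0.23 (SE 0.13, limma adjusted p = 0.334), and downward for 0 members (9.47%).

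A pooled array averages 6 brains and a single one does not, and all single brains were among the arrays deposited on another scale, so these comparisons cannot be told apart from a difference between array sets. Treated ischemic pools 2 and 3 share that scale and treatment. Relative to the mean of those pools the single brains were 0.74 higher for Slc2a1, 0.27 for Vegfa, 0.23 for Aldoa 160090_f_at and 0.17 for Adm, and -0.070 and -0.081 for Ldha and Bnip3. With only 2 pools these values carry no test. Pools 2 and 3 lay apart for Slc2a1 (10.95 and 12.08, single-brain mean 12.26) and for Vegfa (9.18 and 10.01, single-brain mean 9.86). Treated ischemic pool 1, the only one of its group on the common scale, was above the mean of the drug control pools by 1.40 for Vegfa, 0.61 for Adm, 0.39 for Slc2a1 and 0.35 for Ldha. Without drug control pool 2 these were 0.59, 0.30, 0.21 and 0.39 in the same order, and Slc2a1 was 0.65 without drug control pool 1.

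Marker genes of other cell types are given beside these values. The summed intensity of the 8 endothelial markers was 10513 to 14243 in single treated brains, 10615 to 11679 in treated ischemic, 9652 to 13402 in ischemic, 7173 to 11855 in drug control and 7780 to 11584 in control pools. That of the 6 astrocyte markers on the array was 114518 to 141550 in single treated brains, 111025 to 125188 in treated ischemic, 106308 to 118005 in ischemic and 108344 to 111725 in drug control pools. In control pools the astrocyte sum was 95497 to 121915. No marker of either list was at the floor on every array of a group.

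The summed intensity of the red blood cell markers, 2 of 5 on the array, was 1958 to 5305 in single treated brains, 3330 to 9402 in treated ischemic, 7962 to 10981 in ischemic, 2537 to 5003 in drug control and 2689 to 4317 in control pools. Every ischemic pool was thus above every single treated, drug control and control array in this sum. The alpha-globin gene Hba-a1 made up most of it, with a mean log2 intensity of 13.23 in ischemic pools against 7.59 for Alas2. Alas2, the other marker, did not follow that order. It averaged 8.57 in treated ischemic, 8.68 in drug control and 7.15 in control pools, and 7.65 in single treated brains. Of the 7 neutrophil markers, 1 was at the floor in every group. Their summed intensity was 2477 to 3309 in single treated brains, 2991 to 5668 in treated ischemic and 3873 to 6074 in ischemic pools. It was 2866 to 5950 in drug control and 1775 to 5225 in control pools. The neutrophil sums overlapped between all pooled groups.

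Past the threshold, and named after their values were seen, were 2 genes of these lists. The neutrophil gene S100a8, which encodes a calcium-binding protein, rose by 1.35 in ischemic against non-ischemic pools (SE 0.23, limma adjusted p = 0.0331). It rose by 2.15 in ischemic against control pools (SE 0.32, limma adjusted p = 0.0255). Not past the threshold were its differences of 0.54 (SE 0.32) for treated ischemic minus drug control pools and 1.05 (SE 0.32) for drug control minus control pools. No other tested neutrophil marker passed in any comparison. Their differences of ischemic minus non-ischemic pools ran from -0.13 for Mpo to 0.67 for Ltf. The alpha-globin gene Hba-a1 fell by 1.80 in single treated brains against ischemic pools (SE 0.34, limma adjusted p = 0.0370). Alas2, the other red blood cell marker, differed by 0.065 (SE 0.64) in that comparison. With 1 array left out, the limma adjusted p reached 0.112 and 0.160 for S100a8 and 0.0937 for Hba-a1, so these calls did not hold without some of the arrays. Of the other cell types listed here, oligodendrocyte sums were 114303 to 160188 in single treated brains, 105718 to 123675 in treated ischemic and 107666 to 128982 in ischemic pools. They were 90945 to 114375 in drug control and 90600 to 110496 in control pools. Microglia sums were 12915 to 19286 in single treated brains, 16570 to 17335 in treated ischemic and 15275 to 17545 in ischemic pools. They were 15348 to 15842 in drug control and 14859 to 18354 in control pools. The part of these cell types in the members' values was not tested.

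**Figure D4:**
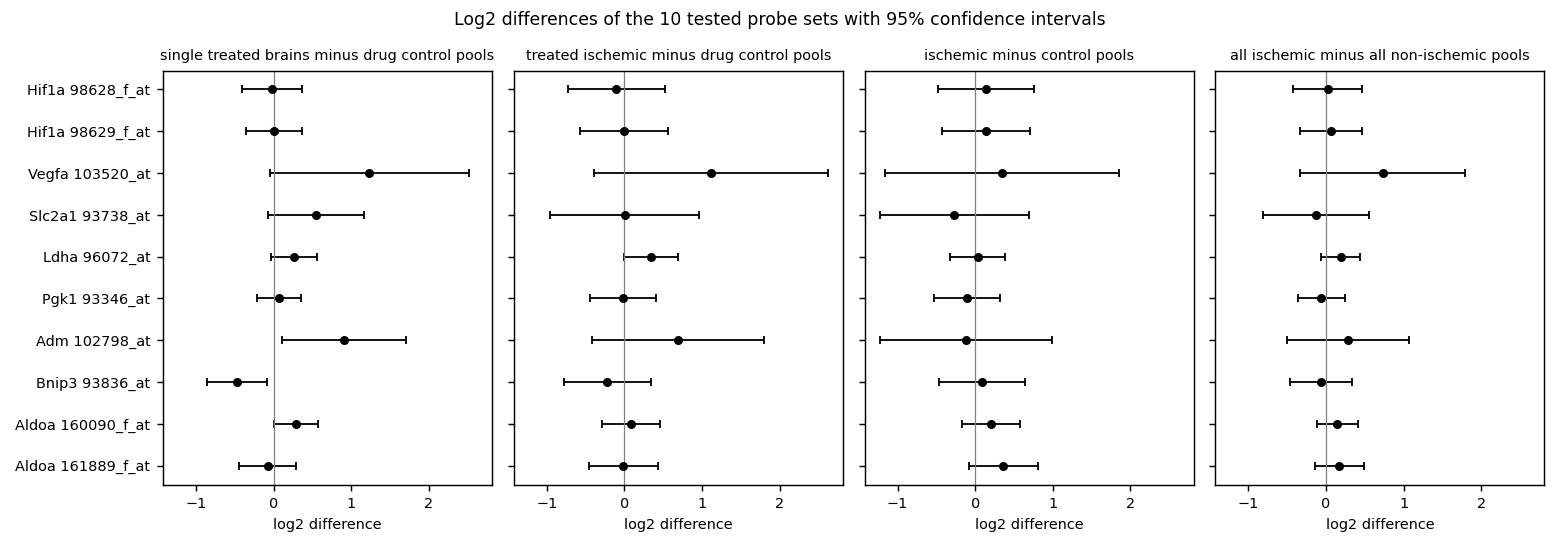
Log2 differences (points) with 95% confidence intervals (bars) of the 10 tested member probe sets in 4 comparisons, on a shared axis. The intervals of Hif1a, Pgk1 and Ldha include 0 in all 4 panels. Those of Adm, Bnip3 and Aldoa 160090_f_at exclude 0 before adjustment in the single treated brains against drug control pools, Bnip3 downward.

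Other genes of the same pathways, in lists chosen for their known roles, also had 0 members past the threshold in the pools. Of 12 tested components of the HIF pathway, 0 passed for ischemic against non-ischemic pools, and their median was -0.063. The log2 differences, each gene by its brightest probe set, ran from -0.51 for Arnt2 (SE 0.69), a partner subunit of HIF, to 0.68 for Vhl (SE 1.02), which marks HIF-1alpha for degradation. Of 23 tested glycolytic enzymes and sugar or lactate carriers, 0 passed and 12 were above 0, with a median of 0.0046. Pdk4, a kinase that restrains pyruvate oxidation, was highest at 0.53 (SE 0.18), and the muscle isoform Pgam2 was lowest at -0.52 (SE 0.35).

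Of 15 tested receptors and partners of VEGF-A and adrenomedullin, 0 passed and 10 were above 0, with a median of 0.20. Tie1, an endothelial receptor tyrosine kinase, was at 1.09 (SE 0.29, limma adjusted p = 0.318), and Angpt1, a ligand of its relative Tek, at -0.69 (SE 0.35). Of 7 tested partners of Bnip3 in cell death and autophagy, 0 passed, and their brightest probe sets lay between -0.066 for Bcl2l1 and 0.14 for Bak1. All these medians stand beside 0.014 for all tested probe sets.

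**Figure D5:**
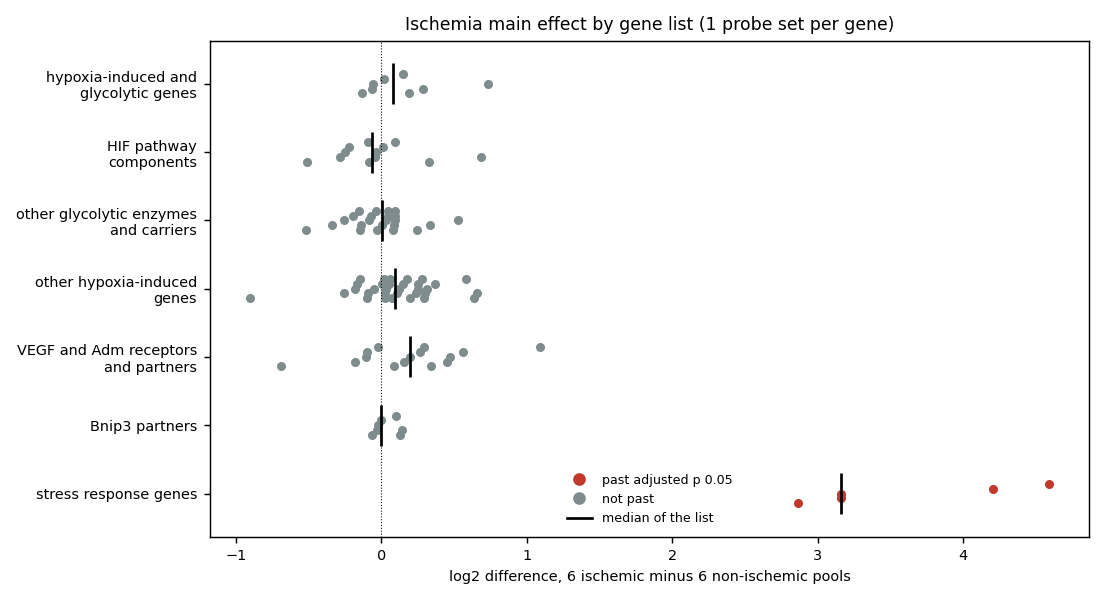
Log2 difference of ischemic minus non-ischemic pools for each tested gene (brightest probe set) of the 10 genes described here and of related lists. Points are genes, black bars are list medians, red marks genes past a limma adjusted p of 0.05. Among these lists only the stress response genes, chosen with their response known, have genes past it.

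A further 40 genes known to be induced by hypoxia gave 32 tested genes. In the pools 0 passed, 24 were above 0 and the median was 0.091. P4ha1, a subunit of the hydroxylase that matures collagen, had 10.85, 10.36 and 11.39 in treated ischemic pools, 10.75, 10.86 and 10.94 in ischemic pools, 9.83, 10.40 and 10.27 in drug control pools, and 10.25, 10.28 and 10.31 in control pools. Its difference of ischemic minus non-ischemic pools was 0.64 (SE 0.18), with a limma adjusted p of 0.422.

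In the single treated brains P4ha1 ran from 11.28 to 11.49, with a median of 11.38, above every drug control pool. It rose by 1.22 against the drug control pools (SE 0.15, limma adjusted p = 0.00232). Car12, a membrane carbonic anhydrase, rose by 1.66 (SE 0.34, limma adjusted p = 0.0326). Its values were 9.77, 10.04, 10.71, 10.02 and 10.09 in the single treated brains, against 9.28, 8.58 and 7.53 in drug control pools. They were 8.41, 9.52 and 9.71 in treated ischemic, 9.40, 9.45 and 9.50 in ischemic and 9.44, 9.42 and 9.50 in control pools, so drug control pool 3, treated ischemic pool 1 and drug control pool 2 had the lowest Car12 values.

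Stress genes aside, P4ha1 and Car12 were the only genes of these pathway lists past the threshold in any of the 8 comparisons. They were 2 of 32 genes, and 2 of 45 probe sets, in a comparison that called 3.21% of all probe sets. The Car12 call did not hold without drug control pool 2, without drug control pool 3 (difference 1.19) or without any 1 of the single brains. Neither call held with the deposited scale as a block over all 17 arrays, where the differences were 1.20 for P4ha1 and 0.45 for Car12.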

How the data were processed

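Each array has 1 deposited intensity per probe set. Per the file values, 15.2% to 19.3% of them were below 0; how they were computed and scaled is not given in the sources used here. Each array was multiplied to a mean of 2500 between its 2nd and 98th percentiles; deposited means of the 7 arrays on another scale were 129 to 210. The scaled values were floored at the 25th percentile (109.5), and log2 was then taken; no deposited value was on a log2 scale. The 66 array controls were left out. Gene symbols came from the platform annotation (10855 probe sets with 1 symbol, 396 with several, 1237 with none); promoters came from RefSeq, GRCm38.p6.

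The tests were limma's (version 3.58.1, R 4.3.3), with the 12 pools in 1 fit and the drug control pools, ischemic pools and single brains in another. Benjamini-Hochberg adjustment ran over every probe set that exceeded the floor on 3 or more arrays, with a threshold of 0.05; p-values are two-sided. The fit was run on simulated pools with independent noise. That simulation lacks the correlation of same-numbered pools given below, so it does not measure the sensitivity of the tests in these data. Arrays carry no read depth, and their number limits the precision.

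Same-numbered control, drug control and ischemic pools had deviations that correlated at 0.332 to 0.571. Those of treated ischemic pools correlated with the others at -0.335 to 0.401. The main fits did not use this pairing, so their standard errors and intervals include the spread between replicate numbers. The replicate block was run only as an alternative, and it covered every pooled group, the treated ischemic pools included.

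Members, lists and tests were chosen with earlier results of these data known. Named genes were all members and, of the lists other than cell type markers, genes past the threshold in any comparison, or otherwise the highest and lowest gene of each list. Alternatives covered scaling, floor, filter, labels, blocks, pooling of the spread and left-out arrays.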

Additional observations from a re-analysis of the deposited data

How the results depend on the processing

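The 80 member differences were recomputed 1572 times, and 0 passed the threshold under any alternative except the values as deposited. In 165 recomputations a difference changed sign with neither value past the threshold. The replicate block, a fit with replicate number as a block, left member calls at 0 and called 65, 35, 12, 1, 0 and 0 probe sets in the pool comparisons, against 46, 22, 9, 1, 1 and 0. It changed no member's call. Leaving out 1 array gave 30 to 44 probe sets against 46 for ischemic and non-ischemic pools, 1 to 19 against 22 without the drug, 1 to 6 against 9 with it, 104 to 372 against 328 for single treated brains and drug control pools, and 35 to 225 against 140 for single treated brains and ischemic pools. Over all alternatives other than the values as deposited, the same counts ran from 19 to 68, 1 to 40, 1 to 21, 1 to 576 and 1 to 408. With the deposited scale as a block in a fit of all 17 arrays, chosen after seeing the data, 1 probe set passed in each single-brain comparison. Scaling to a median moved the median of all probe sets by 0.18 and 0.19 in those comparisons, by 0.17 in the difference of responses, by -0.12 in ischemic against control pools and by -0.11 in drug control against control pools. P4ha1 against ischemic pools then passed (0.75, limma adjusted p = 0.0333), as it did with groups from the descriptions (0.54, limma adjusted p = 0.0276). Car12 against drug control pools had limma adjusted p of 0.0555 to 0.0815 where a left-out array ended its call. The floor at the 10th percentile was not run because that percentile lies below 0; the 20th was added after seeing the data.

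Without rescaling, the medians of all probe sets moved to -2.48 and -2.51 for the treated ischemic pools against drug control and ischemic pools, and to -3.68 and -3.69 for the single brains, and the member calls follow from that construction. Members past the threshold numbered 8 (treated ischemic against drug control pools), 9 (treated ischemic against ischemic pools), 10 and 10 (single treated brains). Reversed values for treated ischemic against drug control pools were -2.63 for Slc2a1, -2.29 for Ldha and -2.54 for Aldoa 160090_f_at. Against ischemic pools they were -2.42 for Vegfa, -2.53 for Slc2a1, -2.40 for Ldha, -2.56 for Pgk1, -2.60 for Aldoa 160090_f_at and -2.61 for P4ha1. For single treated brains against drug control pools they were -3.87 for Hif1a 98629_f_at, -2.61 for Vegfa, -3.33 for Slc2a1, -3.61 for Ldha, -3.81 for Pgk1, -2.30 for Adm, -3.59 for Aldoa 160090_f_at, -2.22 for Car12 and -2.66 for P4ha1. Against ischemic pools they were -3.66 for Vegfa, -3.23 for Slc2a1, -3.72 for Ldha, -3.73 for Pgk1, -2.20 for Adm, -3.65 for Aldoa 160090_f_at, -3.21 for Car12 and -3.35 for P4ha1.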
